A study of Danio rerio with 4 samples.

Results

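The genes described here are nop2, the gene mutated in the study, and factors that act with its product in early particles of the large (60S) ribosomal subunit. They were taken as the rows of the Ribo-seq table whose gene symbol equalled 1 of 9 names, and 8 rows were found among the 25522 listed genes: nop2, pes, bop1, wdr12, ebna1bp2, nip7, ncl and npm1a. No row was matched to the ninth name, brix1. A row listed as bxdc2 (ENSDARG00000098935) is described in the table as a brix domain protein, and BXDC2 is an earlier symbol of the human gene BRIX1. Its values are given beside the others but are not counted among the 8.

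The study compared the brains of nop2 mutant zebrafish with those of siblings, with 1 Ribo-seq library per genotype. In Ribo-seq, messenger RNA is digested with nuclease and the stretches covered by ribosomes are sequenced, so a read is a footprint of 1 ribosome. The sibling group is labelled nop2 sibling and the mutant group nop2 mutant, with no treatment named for either. The sources used here do not give the allele, the genotype of the siblings or how many animals were pooled. The age reads 48 days after fertilization in the titles but 48 hours in the design text, and the labels do not settle which is right.

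Ribosomes are built in the nucleolus, where a long precursor of ribosomal RNA is cut, folded and modified while proteins and assembly factors join it. Nop2, known in human cells as NSUN1, is an RNA methyltransferase that places a 5-methylcytosine on the RNA of the large subunit and is needed for that subunit to form in yeast. Pes, Bop1 and Wdr12 bind each other as the PeBoW complex, which is required for cutting the precursor that yields the large subunit RNAs. Ebna1bp2, Brix1 and Nip7 are RNA-binding factors of early large subunit particles, named Ebp2, Brx1 and Nip7 in yeast. Nucleolin and nucleophosmin are abundant nucleolar proteins that act more widely, in transcription and processing of ribosomal RNA and in the organization of the nucleolus. Cells that divide or grow quickly make much use of all these factors, and neural progenitors are such cells.

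The rounded counts of all listed genes summed to 20696345 (sibling) and 18884879 (mutant) reads, and reads outside these genes are not included. For ratios each count was scaled to this sum, the library total, as CPM. The 18127 genes that averaged 1 CPM or more were kept, and their median log2 ratio of mutant over sibling was -0.06. All 8 genes passed this minimum. All 20 neuron and progenitor markers were kept, and markers of other tissues were present in both libraries. Muscle markers took 7.55% of sibling and 2.57% of mutant reads, eye markers 1.09% and 0.398%, skin markers 1.69% and 2.75%, and blood markers 0.475% and 0.712%. With 1 library per genotype no difference below had a replicate check and no test was made, so intervals are 95% intervals of counting error only. In bulk tissue, fewer cells of a type and less RNA per cell cannot be told apart. A footprint ratio also holds both the amount of messenger RNA and the ribosomes per message, since no total RNA counts were analysed here.

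The mutated gene was almost without footprints in the mutant library, and 5 of its 7 partners were 1.48-fold to 1.70-fold higher there. Of all kept genes, 87.1% had a lower ratio than npm1a, the lowest of these 5. The other two, ncl and wdr12, stood within 1.04-fold of the sibling level. By the fold of 2 used to call a difference, only nop2 of the 8 was past it, 1 gene lower and 0 higher, beside a background of 5.70% of kept genes at least 2-fold lower and 4.72% at least 2-fold higher. The counting interval lay above 0 for 6 of the 8 genes, where 25.2% of all kept genes had such an interval. That share was not matched for read number, on which the width of an interval depends, and each of the 8 averaged at least 16.9 CPM. Among the 6 was ncl, whose ratio was just under 0 with the authors' TPM (-0.0043) and with totals lacking markers of other tissues (-0.01). The 7 partners had a median log2 ratio of 0.60.

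**Figure D1:**
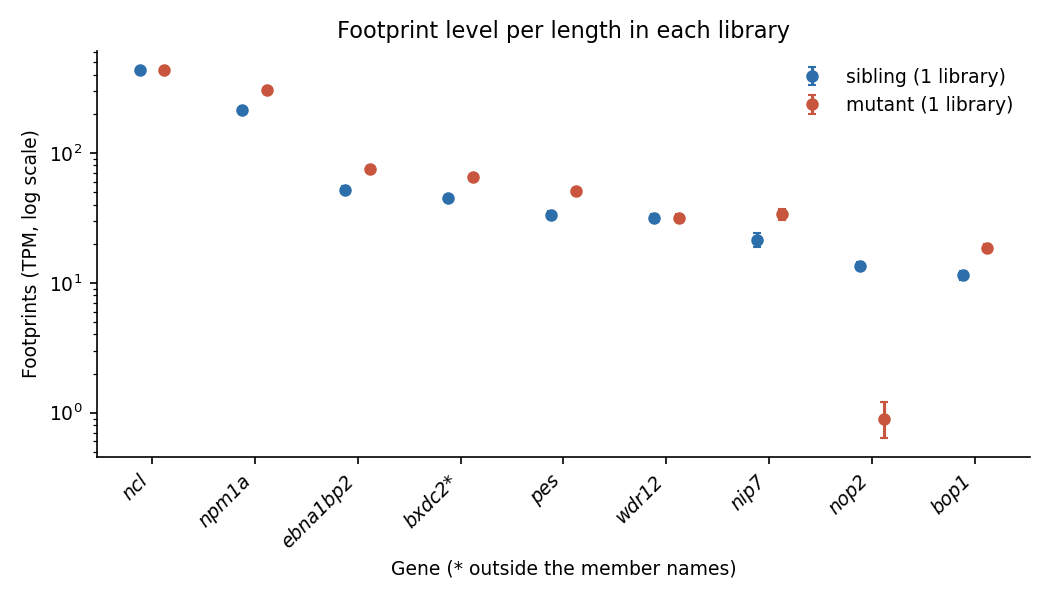
Footprint level in TPM (vertical, log scale) of the 8 genes and of bxdc2, ordered by their sibling level, with the sibling library in blue, the mutant library in red and bars for 95% counting intervals. The mutant point of nop2 sits at 0.892 TPM, under every other point, while the paired points of ncl and wdr12 nearly coincide.

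The gene nop2 (ENSDARG00000043304) had 657 sibling and 41 mutant reads, 31.7 and 2.17 CPM. The mutant level was 6.84% of the sibling level, with a counting interval of 4.86% to 9.38%, a log2 ratio of -3.85 (-4.36 to -3.41). The deposited counts were 656.54 and 41.41, not whole numbers, so some reads were assigned to the gene by an estimate. Only 70 other kept genes, 0.386% of them, had a ratio as low or lower, and 14 of these had at least the sibling CPM of nop2, out of 4861 genes at or above that level. Among the 14 were the eye markers crygm2d11 (-7.24), gnb3a (-6.08), rs1a (-5.05), rho (-5.01) and crygm2d16 (-4.73). The 41 reads left a residual level far above the worth of 1 read, 0.0530 CPM.

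By level and ratio together, the genes nearest to nop2 were bhlhe23, prom1b and the gene listed as Myh4. Over only 2 libraries such a likeness describes no more than a pair of values. The transcription factor gene bhlhe23 went from 608 to 34 reads (29.4 to 1.80 CPM, log2 ratio -4.01). The gene prom1b, a prominin membrane protein gene, went from 537 to 41 reads (log2 ratio -3.56). Myh4, a fast muscle myosin gene, went from 491 to 44 reads (-3.33). The counts of bhlhe23 and Myh4 were not whole.

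The other genes of the Nsun methyltransferase family did not have lower CPM in the mutant library. Of the 6 family genes kept, nop2 was the only one with a lower CPM in the mutant library. Nsun5, which in yeast and mammals methylates another cytosine of the large subunit RNA, had 197 sibling and 223 mutant reads (log2 ratio 0.31, interval 0.03 to 0.59). Nsun2, an enzyme of transfer RNA, went from 689 to 870 reads (0.47, 0.32 to 0.61), and nsun4, an enzyme of the mitochondrial ribosome, from 115 to 169 reads (0.69, 0.34 to 1.04). Nsun3 (40 and 41 reads) and nsun6 (36 and 35 reads) had ratios of 0.17 and 0.09 with intervals that held 0. Per length, nop2 stood at 13.4 TPM and nsun2 at 13.6 TPM in the sibling library, and at 0.892 and 18.1 TPM in the mutant library, TPM being reads scaled by gene length and library. The share of nop2 against nsun5 reads changed by -4.16 on the log2 scale (-4.75 to -3.63), a quantity that the scaling of the libraries does not enter.

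Genes that flank nop2 were looked at next, by the gene order of the RefSeq annotation of the assembly GRCz12tu, which is not the build of the deposited files and was used for order only. Of the 8 nearest protein-coding genes on each side, 15 of 16 were matched by symbol and 12 were kept. Of these 12, 7 were higher and 5 lower, beside 44.9% of all kept genes with a ratio above 0 and 55.1% below 0. Their median log2 ratio was 0.15, and the 5 included gtf3c6, whose levels were all but equal. Farther out, tnfrsf1a stood at 0.96 (0.66 to 1.27) and casp2 at -0.67 (-0.95 to -0.39). The nearest neighbours were nppcl (34 and 21 reads, -0.55, interval -1.42 to 0.26) on one side and gtf3c6, a gene of a polymerase III transcription factor (285 and 260 reads, 13.8 CPM in each library, ratio interval -0.25 to 0.25), on the other. Beyond them stood the glycolytic gene gapdh (756 and 933 CPM, 0.30) and emg1, whose product methylates RNA of the small subunit (352 and 430 reads, 0.42). The only kept neighbour past 2-fold was clcn1b, a chloride channel gene, with 42 sibling and 2 mutant reads (ratio interval -7.35 to -2.32). The opsin gene opn9, under the minimum of 1 CPM, had 12 and 1 reads (interval -8.87 to -0.70).

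**Figure D2:**
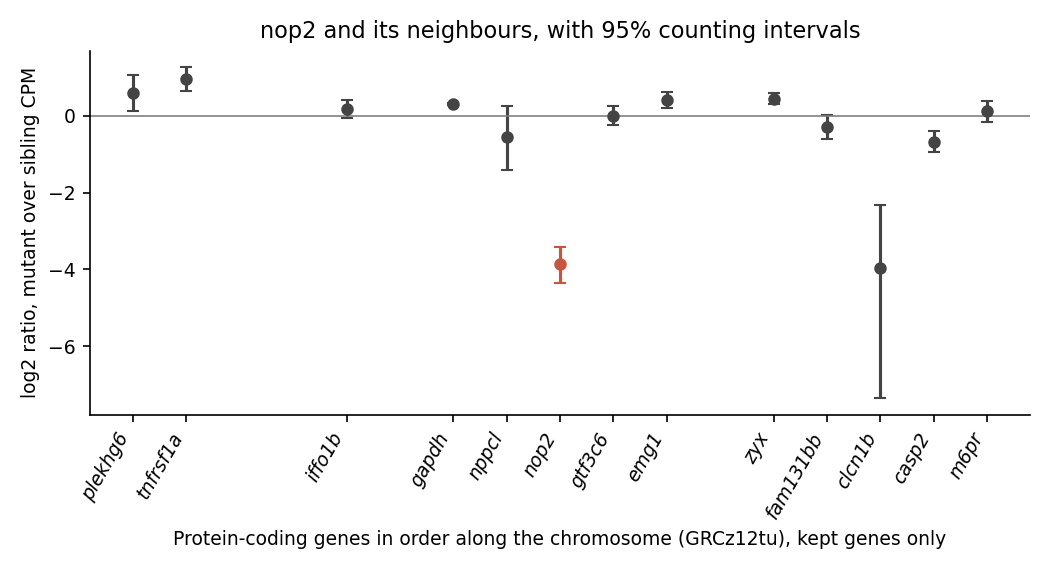
log2 ratio of mutant over sibling CPM (vertical) of nop2 in red and of the 12 kept neighbours in black, placed by gene order along the chromosome, with bars for 95% counting intervals. The 6 kept neighbours closest to nop2 lie between -0.55 and 0.45, and clcn1b, 6 genes away, is the only one near the level of nop2.

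Among the PeBoW genes, pes and bop1 were higher in the mutant library and wdr12 was not. Pes (pescadillo, ENSDARG00000018902) had 1297 sibling and 1878 mutant reads, 62.7 and 99.4 CPM, a log2 ratio of 0.67 (0.56 to 0.77). Bop1 (ENSDARG00000063627), which holds the complex together and carries WD repeats, had 590 and 915 reads, 28.5 and 48.5 CPM, and the highest ratio of the 8 genes, 0.76 (0.61 to 0.92). Wdr12 (ENSDARG00000003287), the WD repeat partner bound by Bop1, had 893 and 843 reads, 43.1 and 44.6 CPM, and a ratio of 0.05 (-0.09 to 0.19). The pes and bop1 intervals thus lay wholly above that of wdr12.

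The balance of footprints among the PeBoW genes, taken from the same counts, differed between the libraries accordingly. Amounts of protein in the complex were not measured. Per length, the sibling library had 33.5 TPM on pes, 31.7 TPM on wdr12 and 11.4 TPM on bop1, with counting intervals of pes (31.7 to 35.4) and wdr12 (29.6 to 33.8) that overlapped. In the mutant library the levels were 51.1 TPM on pes, 31.5 TPM on wdr12 and 18.6 TPM on bop1, and pes and wdr12 no longer overlapped. The TPM ratio of pes to wdr12 was 1.06 (sibling) and 1.62 (mutant), and the change in their share of reads was 0.62 on the log2 scale (0.44 to 0.79). That of bop1 to wdr12 was 0.359 and 0.590, a change of 0.72 (0.51 to 0.92). The TPM ratio of pes to bop1 was 2.95 and 2.75, a change of -0.10 whose interval held 0 (-0.28 to 0.08). These changes compare genes within a library, so no scaling of the libraries moves them.

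The RNA-binding factors of early particles were all higher in the mutant library, and by similar amounts. Ebna1bp2 (ENSDARG00000054980) had 1079 and 1494 reads, 52.1 and 79.1 CPM, a log2 ratio of 0.60 (0.49 to 0.72). Nip7 (ENSDARG00000059075), the factor with fewest reads of these in the sibling library, had 266 and 397 reads, 12.9 and 21.0 CPM, a ratio of 0.71 (0.48 to 0.94). The gene bxdc2 had 1144 and 1597 reads, 55.3 and 84.6 CPM, a ratio of 0.61 (0.50 to 0.72). Their intervals overlapped each other and those of pes and bop1. Against pes, the share of ebna1bp2 reads changed by -0.06 (-0.22 to 0.09) and that of nip7 by 0.04 (-0.21 to 0.30), whereas against wdr12 they changed by 0.55 (0.37 to 0.73) and 0.66 (0.39 to 0.93).

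**Figure D3:**
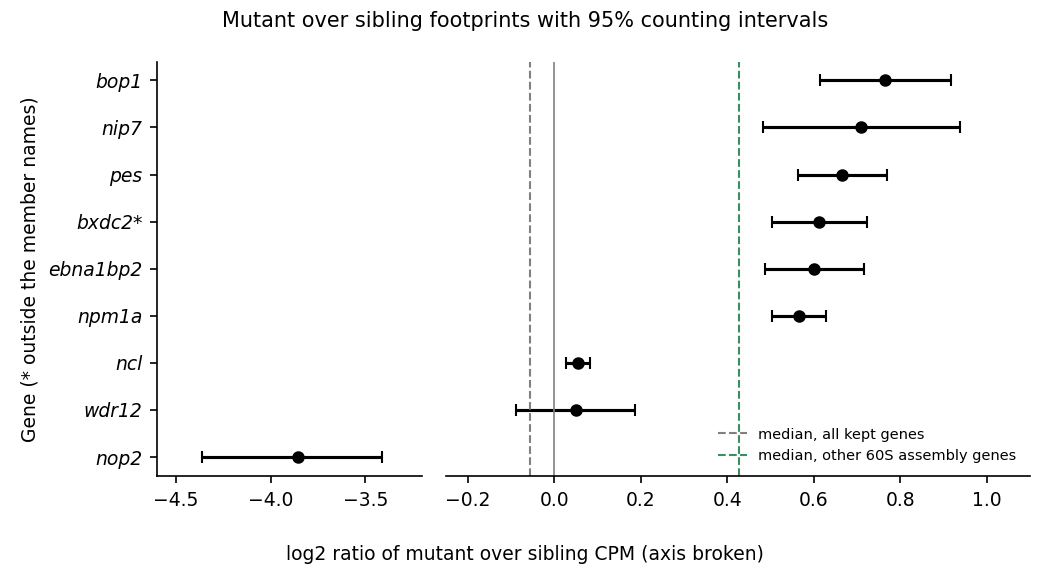
log2 ratio of mutant over sibling CPM (horizontal, axis broken) of the 8 genes and of bxdc2, with 95% counting intervals, the median of all kept genes (grey dashes) and the median of other 60S assembly genes (green dashes). 6 genes, bxdc2 included, lie between 0.57 and 0.76, ncl and wdr12 lie near 0.05, and nop2 lies at -3.85.

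The abundant nucleolar proteins differed from each other. Nucleolin (ncl, ENSDARG00000002710) had 20229 and 19168 reads, 977 and 1015 CPM, a log2 ratio of 0.05 with a narrow interval (0.03 to 0.08). Nucleophosmin 1a (npm1a, ENSDARG00000014329) had 3568 and 4822 reads, 172 and 255 CPM, a ratio of 0.57 (0.50 to 0.63). The TPM ratio of npm1a to ncl was 0.489 (sibling) and 0.705 (mutant), and the share of npm1a against ncl reads changed by 0.51 (0.44 to 0.58). The counts of both genes were not whole.

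The nucleophosmin copy npm1b did not differ as npm1a did. It had 2227 and 2097 reads, 108 and 111 CPM, a log2 ratio of 0.05 (-0.04 to 0.13), and the share of npm1a against npm1b reads changed by 0.52 (0.41 to 0.63). The relative npm3, whose product is a nucleoplasmin-type histone chaperone, had 905 and 715 reads and a ratio of -0.21 (-0.35 to -0.06). The family genes npm2a (8 and 4 reads) and npm2b (0 and 4 reads) did not reach 1 CPM. Since npm1a and npm1b are gene copies with counts that were not whole, reads may be divided between them by the estimate.

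Per length, the order of the 8 genes in the sibling library was ncl (434 TPM), npm1a (212), ebna1bp2 (52.0), pes (33.5), wdr12 (31.7), nip7 (21.4), nop2 (13.4) and bop1 (11.4). Apart from pes and wdr12, neighbours in this order had counting intervals that did not overlap. In the mutant library ncl (433 TPM), npm1a (305), ebna1bp2 (75.7) and pes (51.1) kept their places, nip7 (33.6, interval 30.4 to 37.1) and wdr12 (31.5, interval 29.4 to 33.7) overlapped, and bop1 (18.6) and nop2 (0.892) came last. Among all genes, ncl ranked 390 (sibling) and 406 (mutant) of 25522, and nop2 ranked 6898 and 17532. The 8 genes together made up 0.138% of the sibling library and 0.157% of the mutant library, and ncl and npm1a held 83.3% and 81.2% of these.

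Other large subunit assembly genes stood higher in the mutant library in most cases. Their median lay under the ratios of pes, bop1 and the RNA-binding factors, but their range (-0.15 to 1.19) included those ratios. A list of 51 names, written for early steps but holding some later factors as well, matched 53 rows, of which 52 were kept. Of these 48 were higher and 4 lower, beside 44.9% of all kept genes with a ratio above 0 and 55.1% below 0. Only 1 of the 52 was at least 2-fold higher, where 4.72% of all kept genes were. The 52 genes had a median log2 ratio of 0.43 against -0.06 over all kept genes. The counting interval lay above 0 for 40 genes and below 0 for 0 genes, and held 0 for the remaining 12. Of all kept genes, 25.2% had an interval above 0 and 31.9% an interval below 0, shares not matched for read number.

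The list had ccdc86 at its top, the gene of a nucleolar coiled-coil protein, with 477 and 991 reads, 23.0 and 52.5 CPM, and a log2 ratio of 1.19 (1.03 to 1.35). Next came rrp8, which in yeast methylates an adenine of the large subunit RNA, with 146 and 254 reads (0.93, 0.63 to 1.23), and rsl1d1, the relative of yeast Cic1, with 552 and 890 reads (0.82, 0.67 to 0.98). At the lower end stood nle1 (329 and 270 reads, -0.15), MDN1 (1757 and 1501 reads, -0.09) and pelp1 (1902 and 1636 reads, -0.09), all with intervals that held 0. MDN1 is the giant ATPase that, in yeast, strips the Pes, Bop1 and Wdr12 counterparts from the particle, and the yeast counterpart of nle1 (Rsa4) is the factor on which it later pulls. Among the genes with most reads, the GTPase gene gtpbp4 (90.5 and 129 CPM, 0.51) and mybbp1a (78.1 and 118 CPM, 0.60) were higher, and pdcd11, the counterpart of yeast Rrp5, stood at 0.15 (88.1 and 98.0 CPM, interval 0.06 to 0.25).

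Set against the summed reads of that list, 38931 sibling and 45760 mutant reads, the 8 genes went in different directions. The share of nop2 was lower by far, a change of -4.24 (-4.73 to -3.78). The shares of wdr12 (-0.32, -0.46 to -0.18) and ncl (-0.31, -0.35 to -0.28) were lower as well. Those of npm1a (0.20), ebna1bp2 (0.24), pes (0.30), nip7 (0.34) and bop1 (0.40) were higher, each with an interval above 0.

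**Figure D4:**
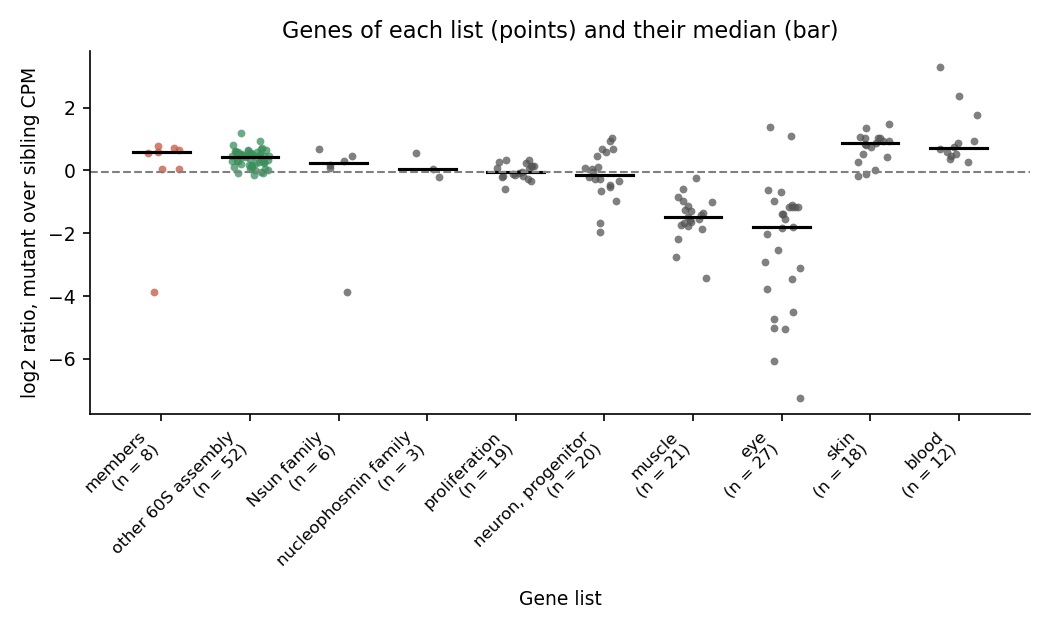
log2 ratio of mutant over sibling CPM (vertical) of each kept gene (points) in 10 gene lists, with the median of each list (black bar) and of all kept genes (dashed line). The 8 members have a median of 0.58 with nop2 far below, the other 60S assembly genes a median of 0.43, and the muscle and eye markers medians of -1.48 and -1.80.

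Marker lists of cell state and of other tissues were set beside these values. Of all kept genes, 44.9% had a ratio above 0 and 55.1% below 0. The shares higher among proliferation markers (47.4%) and among neuron and progenitor markers (45%) were near that background. Proliferation markers did not stand higher as a group, with 9 of 19 higher and 10 lower, a median log2 ratio of -0.06 and a range of -0.59 to 0.34. That median also pools genes that differed, with counting intervals above 0 for 7, below 0 for 10 and holding 0 for 2. Examples are plk1 (0.34) and ccnb1 (0.33) on one side and pcna (-0.35) and mcm7 (-0.26) on the other. Neuron and progenitor markers had 9 of 20 higher and a median of -0.14, which pools genes that differed, over a range of -1.97 to 1.04. Of its progenitor genes, dla (1.04), her4.1 (0.93), sox3 (0.70), ascl1a (0.67), nes (0.60) and sox19a (0.46) were higher in the mutant library. Sox2 stood at 0.10, and gfap (-0.26) and fabp7a (-1.67) were lower. Neuron genes included neurod1 (-1.97), snap25b (-0.98), syt1a (-0.67) and elavl4 (-0.53), with elavl3 (0.04) and snap25a (0.06) near 0. All 21 muscle markers and 25 of 27 eye markers were lower, and all 12 blood markers and 16 of 18 skin markers were higher. Taking all muscle, eye, skin and blood markers out of the library totals left pes at 0.60, bop1 at 0.70, nip7 at 0.64, ebna1bp2 at 0.53, npm1a at 0.50 and nop2 at -3.92, while ncl and wdr12 went to -0.01 and -0.02. Which cells carried the footprints was not tested.

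**Figure D5:**
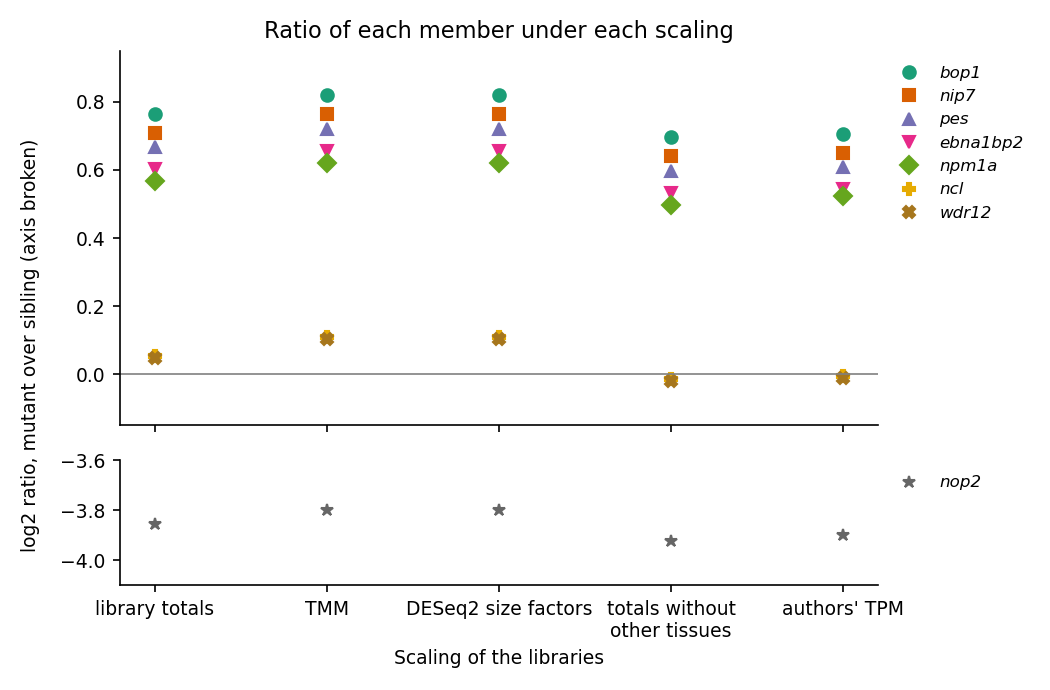
log2 ratio of mutant over sibling (vertical, axis broken) of the 8 genes under 5 scalings of the libraries. The order of the genes is the same in each column, bop1, nip7, pes, ebna1bp2 and npm1a stay above 0.49, nop2 stays under -3.7, and ncl and wdr12 lie on either side of 0.

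The sign of ncl and wdr12 depended on the scaling. With TMM both stood above 0 (0.11 and 0.10), and with the authors' TPM values slightly under it (-0.0043 and -0.01). In the authors' deposited table, 6 of the 8 genes had an FDR under 0.05, all but ncl and wdr12, where 38.7% of all listed genes did. That share includes genes without reads and was not matched for read number. The deposited log2 fold changes of these 6 were -3.91 for nop2, 0.71 for bop1, 0.65 for nip7, 0.61 for pes, 0.54 for ebna1bp2 and 0.52 for npm1a, in the authors' deposited table. That table compares 1 library with 1 library, so its FDR carries no spread between animals.

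In the deposited annotation, 6 of the 8 genes carried any Gene Ontology component term, and all 6 were annotated to the nucleolus, a term given to 161 genes or 0.631% of the table. The term for the large subunit precursor particle was given to 8 genes in all, 3 of them pes, ebna1bp2 and nip7. The other 5 genes with that term were all higher in the mutant library, where 44.9% of all kept genes were, with a median log2 ratio of 0.46. Their range ran from 0.04 (ftsj3) to 0.60 (nsa2). Both of these genes are also in the list of other 60S assembly genes, so the 5 are not a separate set. This term was chosen after the values were seen.

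RNA bisulfite sequencing reads 5-methylcytosine in RNA. The authors' deposited tables list differential loci in 92 genes and differential regions in 51 genes, and 0 of the 9 names, bxdc2 or the other 60S assembly genes were among them. Of all genes in the Ribo-seq table, 0.286% were listed with loci and 0.145% with regions in the authors' deposited tables, so a count of 0 among these few genes is near that background. Those tables hold loci and regions past the authors' threshold, and only their gene names were read. They therefore say nothing here of ribosomal RNA, the known substrate of Nop2, or of sites under that threshold.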

How the data were processed

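Ribo-seq footprints of brain tissue were read from the authors' deposited table of 25522 genes. The submitters' processing notes name the build GRCz11 and, without roles or order, HISAT2, STAR, Bowtie2, methylKit, SAMtools, fastp and Trimmomatic 0.38; no source used here names the counting program. The deposited counts are the authors' expected counts, since 25.7% of genes (5 of the 8 members) had a count that was not whole, and they were rounded. The authors also deposited TPM, a log2 fold change that equals the log2 of mutant over sibling TPM within 0.01 for 100% of genes (with 0 set to 0.001), and a p-value and FDR by an unstated test. From the authors' bisulfite tables, whose conditions no header ties to a genotype, only gene names were taken.

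A pseudocount of 0.5 was added to counts for log2 ratios and for the log2 CPM used to find the nearest genes. Printed CPM, the percent level of nop2, changes against the summed list and all intervals were computed without it. The minimum for keeping a gene was an average of 1 CPM. Intervals are exact Clopper-Pearson intervals (95%) conditional on the sum of both counts, exact Poisson intervals for TPM, and exact conditional odds-ratio intervals for the change of 1 gene against another. They cover counting error only, and reads that carry no molecular identifiers may be copies of 1 molecule. The summed counts of the listed genes, 20696345 and 18884879 reads, served as library totals. Symbols of lists were matched without regard to case. Named were all members, the nucleophosmin and Nsun families, the 3 genes nearest to nop2 in log2 CPM, and from the 60S list the 3 highest, 3 lowest and 3 most read genes at a mean of at least 10 CPM. Members and lists were chosen with earlier results of these data known. The flanking genes, the Gene Ontology term and the changes of one gene against another were added after the values were seen. Alternatives were TMM (edgeR 4.0.16), DESeq2 1.42.0 size factors, other totals, TPM, pseudocounts, rounding and minimum levels. The computation of ratios and intervals was run on simulated Poisson counts with known changes. Those counts held no spread between animals and no copied reads, so this checked the code only. Python 3.11.15, scipy 1.17.1 and R 4.3.3 were used.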

Additional observations from a re-analysis of the deposited data

How the results depend on the processing

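Of 112 values recomputed under other settings, 103 stayed and 9 moved. A ratio had to stay within its counting interval and a count within 1.5 times the main count. The median of the 60S list had to stay within an interval from its ranked gene ratios (0.29 to 0.50). Moved were ncl with TMM, DESeq2 size factors, TPM and totals lacking tissue markers, and npm1a with those totals (0.498, interval 0.504 to 0.630). The rest were counts of all genes past 2-fold at other minimum levels. The scalings shifted the median of all genes by only -0.07 to 0.05, so most settings left values little room to move. The fall from 7 to 5 members higher in the mutant library counted as within 1.5 times. The log2 ratio of nop2 ran from -3.92 to -3.71, and it was the only member past 2-fold in each setting. Members higher in the mutant library numbered 7 with library totals, TMM and DESeq2 size factors, 5 with TPM and with totals lacking muscle, eye, skin and blood markers, where ncl and wdr12 lay just under 0, and 8 with bxdc2 counted as brix1, an alternative added after seeing the data. Of the other 60S assembly genes, 44 to 49 were higher among 52, with a median of 0.36 to 0.48, and 45 were higher at a minimum of 10 CPM. All genes at least 2-fold higher and lower numbered 2082 and 2498 with no minimum level and 362 and 333 at 10 CPM, where other numbers of genes enter, against 856 and 1034. The split between them turned to 982 higher and 921 lower with TMM and 982 and 924 with DESeq2 size factors, which moved the median of all genes by 0.05. No paired analysis was possible because each genotype had 1 library, and for the same reason no replicate could be left out. Depth limits genes with few reads, such as nppcl, clcn1b, nsun3 and nsun6, whose intervals are wide.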

Other observations

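All 4 kept genes of the 60S list with a ratio below 0 were nle1 (-0.15), MDN1 (-0.09), pelp1 (-0.09) and senp3a (-0.05), chosen here after their values were seen. In human cells, PELP1, SENP3, WDR18, TEX10 and LAS1L form one complex that acts with MDN1 on later nuclear particles of the large subunit. The other genes of that complex in the list stood at 0.02 (wdr18), 0.06 (las1l), 0.24 (tex10) and 0.25 (senp3b), all under the list's median of 0.43. Such values were not particular to the complex. List genes outside it that stood as low included ftsj3 (0.04), noc2l (0.09), RRP1 (0.10), pdcd11 (0.15) and ddx54 (0.17). Within the complex, reads in the sibling and mutant libraries numbered 828 and 766 for wdr18, 827 and 786 for las1l, 960 and 1037 for tex10, and 702 and 762 for senp3b. No test was made on these genes.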
